A study of Homo sapiens with 12 samples.

Results

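Integrins and focal adhesion genes were examined in HMC3 cells, as a set of 36 genes chosen by name, with earlier results of these data known. The set held 16 integrin subunits (11 alpha and 5 beta) and 20 genes of the proteins that gather at their cytoplasmic side. They are 36 of the 36315 genes to which the transcripts of these libraries were assigned. All 36 passed the filter for testing (at least 10 counts over 12 libraries). With ephrin-B1 siRNA, transcripts of the actin linker vinculin (VCL), of integrin beta 5 (ITGB5) and, by a smaller amount, of integrin alpha 3 (ITGA3) fell, while those of the adaptor CRK rose. With EphB2-Fc, transcripts of integrin beta 4 (ITGB4) fell. None of these calls held without replicate 3 of all groups, except in a fit that took the replicate number into account. The call of ITGA3 was also lost without some single libraries. In the main test ITGB4 was called only as an average over cells with and without ephrin-B1 siRNA.

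Integrins are transmembrane receptors made of 1 alpha and 1 beta subunit that bind proteins of the extracellular matrix or of other cells. Talin and kindlin bind the tail of the beta subunit and switch the receptor to its active form. Clustered integrins then gather a focal adhesion, a plaque in which focal adhesion kinase, paxillin and p130Cas signal and vinculin, alpha-actinin, zyxin and tensin join the receptor to actin filaments. In microglia of the brain, the integrin best known as a marker is CD11b (ITGAM) paired with ITGB2.

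HMC3 cells are immortalized human cells used by the study to model microglia. Cells received ephrin-B1 siRNA or negative control siRNA for 48 h and then Fc proteins, clustered beforehand with an antibody, at 2 ug/mL for 24 h. EphB2-Fc holds the receptor EphB2, which binds ephrin-B ligands on the cells and makes these ligands signal into the cell that carries them (reverse signaling), and Ctrl-Fc is its control. The groups, with 3 libraries each, were Ctrl (Ctrl-Fc and control siRNA), EphB2 (EphB2-Fc and control siRNA), ephrin-B1 siRNA (that siRNA with Ctrl-Fc) and EphB2 + ephrin-B1 siRNA, which had EphB2-Fc after the siRNA. By the study's culture methods all 4 groups were transfected and all received an Fc protein, and no untreated cells were analysed here. The sample titles of Ctrl and EphB2 name no siRNA, so control siRNA in these groups is taken from those methods. With a single ephrin-B1 siRNA condition, loss of ephrin-B1 and other effects of the siRNA cannot be told apart.

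Estimated counts per library ranged from 13230689 to 25785591. EFNB1, the gene of ephrin-B1 and the target of the siRNA, was at 20.4, 17.5 and 19.3 CPM (counts per M counts after TMM normalization) in Ctrl, 15.6, 18.8 and 18.4 in EphB2, 7.1, 6.6 and 8.7 in ephrin-B1 siRNA and 6.56, 6.03 and 6.38 in EphB2 + ephrin-B1 siRNA, so every library with the siRNA lay under every library without it. EPHB2 itself lay between 58.2 and 73.4 CPM with control siRNA and between 46.4 and 55.6 CPM with ephrin-B1 siRNA (log2 fold change -0.34 averaged over both Fc proteins, adjusted p = 0.00969). Of 10 microglia markers, 7 were under 1 TPM (transcripts per M, per length) in the mean of all libraries. These were AIF1, CX3CR1, P2RY12, ITGAM, PTPRC, SPI1 and TREM2. The others were TMEM119, CSF1R and CD68, and the 10 markers summed to 23.4 to 37.7 TPM. Of 6 fibroblast or pericyte markers 1 was under 1 TPM, COL3A1, and the 6 summed to 883 to 1760 TPM. The 3 endothelial markers summed to 1.16 to 3.63 TPM, the 3 neuron markers to 5.79 to 18.4 TPM and the 3 astrocyte markers to 5.19 to 14.0 TPM. The submitted files give 1 experiment number to all libraries of a replicate number, and a fit that blocks on this number (the blocked fit) was therefore run beside the main fit. For most members replicate 3 lay between replicates 1 and 2, as given at the end, so the blocked values hold only as far as replicate 3 is an independent experiment.

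Among the 11 alpha subunits of the set, ITGA3, a laminin receptor subunit, had the highest level, 266 TPM in the mean of 12 libraries (222 to 330). The fibronectin receptor subunit ITGA5 (62.0 TPM, 42.6 to 86.3) and the vitronectin receptor subunit ITGAV (55.5 TPM, 41.4 to 76.4) followed, with ranges that overlapped each other and not that of ITGA3. The next of the set were ITGA7 (17.9 TPM) and ITGA6 (16.8 TPM), both laminin receptor subunits, and then the collagen receptor subunit ITGA11 (12.4 TPM), whose ranges also overlapped. The other collagen receptor subunits of this range, ITGA1 (9.37 TPM, 2.31 to 25.9) and ITGA2 (2.70 TPM, 0.998 to 5.84), and ITGA4, which pairs with ITGB1 to bind fibronectin and VCAM1 (6.27 TPM), were lower. ITGA10 was at 0.909 TPM with 365 counts in all 12 libraries, and ITGA8 was at 0.0645 TPM with 69 counts. Neither passed in the averaged comparisons, where the SE of the log2 fold change for the siRNA was 0.38 for ITGA8 and 0.22 for ITGA10 (0.43 and 0.18 with the block).

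ITGB1, the common partner of the alpha subunits of this set, held 260 TPM (194 to 311), or 72.7% of the summed TPM of 8 beta subunits. ITGB4, which pairs with ITGA6 in hemidesmosomes (30.3 TPM, 15.1 to 59.3), ITGB5 (28.2 TPM, 19.1 to 34.1), ITGB8 (19.7 TPM) and ITGB3 (16.2 TPM, 8.10 to 26.4), all 3 partners of ITGAV, followed with overlapping ranges. Of the 10 subunits outside the set, only ITGAE (21.0 TPM) and ITGA2B (12.2 TPM) exceeded 3 TPM, ITGAE above ITGA7 and ITGA2B just under ITGA11. By counts over all 12 libraries both lay lower, with 2211 for ITGAE against 7135 for ITGA7. ITGA2B had 3413 against 10837 for ITGA11. The leukocyte subunit ITGB2 had 7 to 92 counts per library and ITGAM, its partner in CD11b/CD18, had 51 counts over all 12 libraries.

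Among the adhesion proteins, the actin crosslinker ACTN1 had the highest level (365 TPM, 291 to 415), followed by its paralog ACTN4 (155 TPM), the integrin activator talin 1 (TLN1, 145 TPM), VCL (136 TPM, 92.5 to 171), the scaffold paxillin (PXN, 135 TPM) and LPP (133 TPM), a LIM protein of adhesions. TGFB1I1 (Hic-5, a paralog of paxillin) was at 111 TPM, the focal adhesion kinase PTK2 at 103 TPM, zyxin (ZYX) at 95.0 TPM and the pseudokinase ILK at 90.1 TPM. The second talin gene, TLN2, was at 13.2 TPM. The plot of levels by role shows this order with every library.

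**Figure D1:**
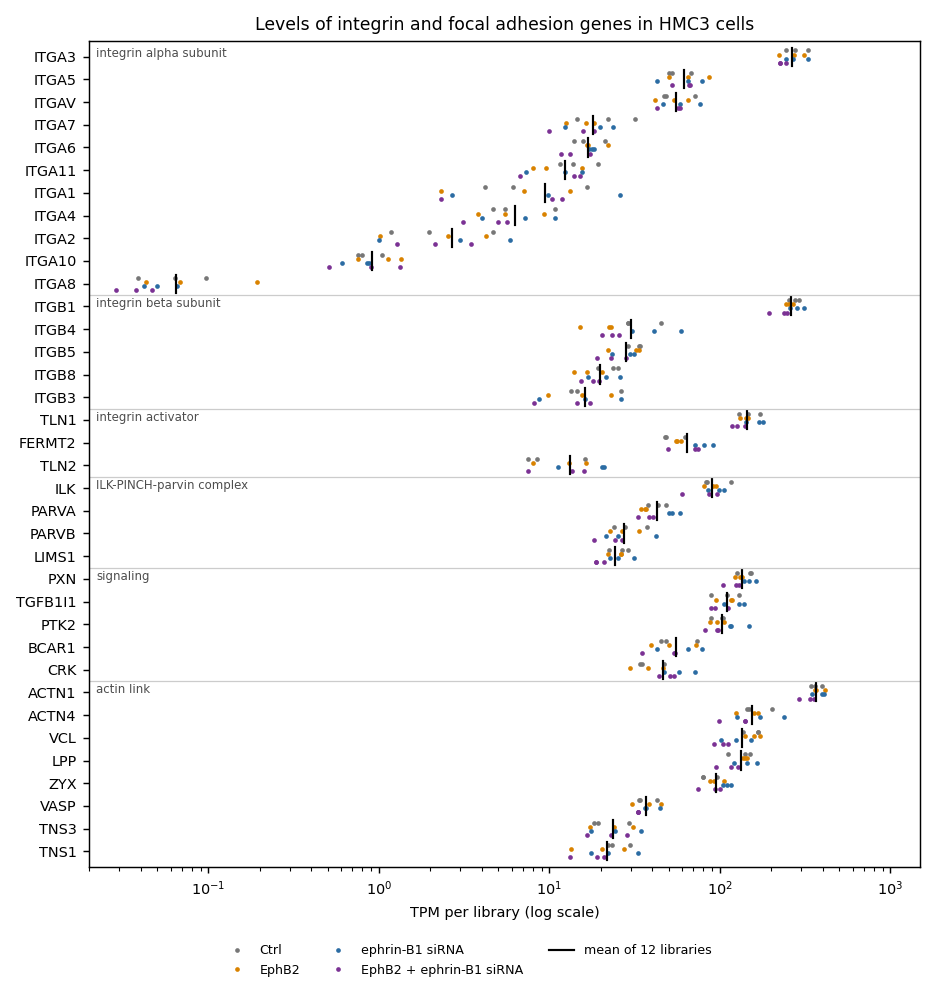
TPM (per length, log axis) of each of the 36 genes in each of the 12 libraries, coloured by group, with the mean of 12 libraries as a black bar and genes ordered by mean within a role. ITGA3 at 266 TPM and ITGB1 at 260 TPM lie far above the other subunits of their kind, and ITGA8 at 0.0645 TPM is the lowest gene.

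Some of these levels rest on shared or unusual transcripts. Of the transcripts of VCL, VCL-201, with 22 exons and 1134 coded residues, the form that includes the additional exon of metavinculin, held 74.3% of the counts (72.4 to 75.9), and VCL-202, with 21 exons and 1066 residues, held 23.5% (21.4 to 25.7), with no group apart from the others. CRK-201, with 304 residues (CRK-II), held 74.9% of the CRK counts, and CRK-202, with 204 residues (CRK-I), held 24.0%. The share of CRK-202 was 28.7%, 31.2% and 30.7% in Ctrl, 32.0%, 28.6% and 23.1% in ephrin-B1 siRNA, 21.6%, 13.8% and 15.1% in EphB2, and 23.3%, 21.1% and 18.9% in EphB2 + ephrin-B1 siRNA. It was thus lower in the libraries with EphB2-Fc, except that the highest of these overlapped the lowest of ephrin-B1 siRNA. The difference was seen in the values and was not tested.

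For ITGA1, 79.5% of the counts lay on ITGA1-208, a transcript annotated for nonsense-mediated decay, and its exons share 499 bases with PELO and 571 bases with a ribosomal protein pseudogene on the same strand, so its level is uncertain. Exons of ILK share 2374 of 3484 bases with TAF10 on the opposite strand, those of ITGA4 share 2813 of 10654 bases with CERKL, and those of VCL share 1109 of 9992 bases with AP3M1. Exons of ITGB3 share 2266 of 6829 bases with an unnamed gene on the same strand. Whether the quantification used strand is not given in the sources used here, and reads of such stretches cannot be told apart.

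The promoters of VCL, ITGB5 and CRK are shown because these 3 members had the smallest adjusted p with ephrin-B1 siRNA. Each sequence holds the 250 bases before the RefSeq start (GRCh38.p14) nearest to the start of the gene's most abundant transcript, 5′ to 3′ on the gene's strand, and for all 3 both starts were the same base. Capitals mark GGGCGG (the GC box bound by SP factors) and GGAATG (bound by TEAD factors), on either strand. VCL lies at chr10:73997866-73998115 on the plus strand, ITGB5 at chr3:124887366-124887615 on the minus strand and CRK at chr17:1456233-1456482 on the minus strand.
VCL: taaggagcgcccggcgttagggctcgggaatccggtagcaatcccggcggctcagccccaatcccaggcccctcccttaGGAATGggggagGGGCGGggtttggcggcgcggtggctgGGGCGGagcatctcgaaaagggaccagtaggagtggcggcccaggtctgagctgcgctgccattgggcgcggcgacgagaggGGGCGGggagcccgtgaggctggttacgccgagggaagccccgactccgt
ITGB5: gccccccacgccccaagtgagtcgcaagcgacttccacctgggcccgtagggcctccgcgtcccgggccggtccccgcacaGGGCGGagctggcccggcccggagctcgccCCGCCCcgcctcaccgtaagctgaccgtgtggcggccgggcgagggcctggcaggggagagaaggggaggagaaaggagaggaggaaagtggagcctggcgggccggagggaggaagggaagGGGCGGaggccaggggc
CRK: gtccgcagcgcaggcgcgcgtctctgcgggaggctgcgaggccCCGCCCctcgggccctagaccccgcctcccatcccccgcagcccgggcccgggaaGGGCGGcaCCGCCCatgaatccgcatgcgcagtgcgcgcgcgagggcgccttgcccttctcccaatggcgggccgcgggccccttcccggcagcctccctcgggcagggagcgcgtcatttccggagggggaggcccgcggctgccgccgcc

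GGGCGG was found 3 times in each of these windows, and in 23 of the 30 members with a RefSeq entry, against 42.6% of 35116 RefSeq windows of the same length. GGAATG was found in VCL and in 4 of the 30 members, against 11.9% of all windows. TGANTCA (AP-1) was found in 1 of 30 members against 6.57%, CACGTG (the E-box) in 1 of 30 against 6.34%, and the CArG box of serum response factor in 0 of 30 against 1.16%. These matches describe the letters of the windows and no binding was measured.

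For the siRNA, libraries with ephrin-B1 siRNA were compared with those with control siRNA, averaged over both Fc proteins. VCL was at 685, 779 and 703 CPM in Ctrl and at 691, 771 and 747 CPM in EphB2, against 504, 480 and 476 CPM in ephrin-B1 siRNA and 523, 473 and 511 CPM in EphB2 + ephrin-B1 siRNA. The lowest library with control siRNA (685 CPM) thus lay above the highest with ephrin-B1 siRNA (523 CPM). VCL fell by 0.56 on the log2 scale (SE 0.05, 1.48-fold lower, adjusted p = 0.000329), in 6 of 6 same-numbered pairs.

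ITGB5 was at 63.1, 67.7 and 68.5 CPM in Ctrl and at 56.8, 64.0 and 61.9 CPM in EphB2, against 48.1, 46.9 and 46.8 CPM in ephrin-B1 siRNA and 46.4, 49.9 and 50.7 CPM in EphB2 + ephrin-B1 siRNA. Again the libraries did not overlap, and ITGB5 fell by 0.40 on the log2 scale (SE 0.05, 1.32-fold lower, adjusted p = 0.000801), in 6 of 6 pairs. CRK, an SH2 and SH3 adaptor that binds phosphorylated p130Cas and paxillin, moved the other way. It was at 128, 106 and 117 CPM in Ctrl and at 130, 113 and 114 CPM in EphB2, and at 156, 151 and 150 CPM in ephrin-B1 siRNA and 168, 152 and 158 CPM in EphB2 + ephrin-B1 siRNA. CRK rose by 0.40 on the log2 scale (SE 0.06, 1.32-fold higher, adjusted p = 0.00232), in 6 of 6 pairs and with no overlap.

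ITGA3 was at 942, 888 and 905 CPM in Ctrl, 858, 865 and 861 CPM in EphB2, 774, 809 and 782 CPM in ephrin-B1 siRNA, and 788, 764 and 777 CPM in EphB2 + ephrin-B1 siRNA. It fell by 0.18 on the log2 scale (SE 0.04, 1.13-fold lower, adjusted p = 0.0274), in 6 of 6 pairs. Of the 4 calls only this one was lost when single libraries were left out (9 of 12 libraries, adjusted p up to 0.0847), and it was also lost without replicate 1 or replicate 2 of all groups. When replicate 3 was left out of all groups, none of the 4 passed (adjusted p = 0.258 for VCL, 0.334 for ITGB5, 0.348 for CRK and 0.688 for ITGA3), while with the block and without replicate 3 all 4 did (adjusted p = 0.00074, 0.00172, 0.000744 and 0.0496).

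**Figure D2:**
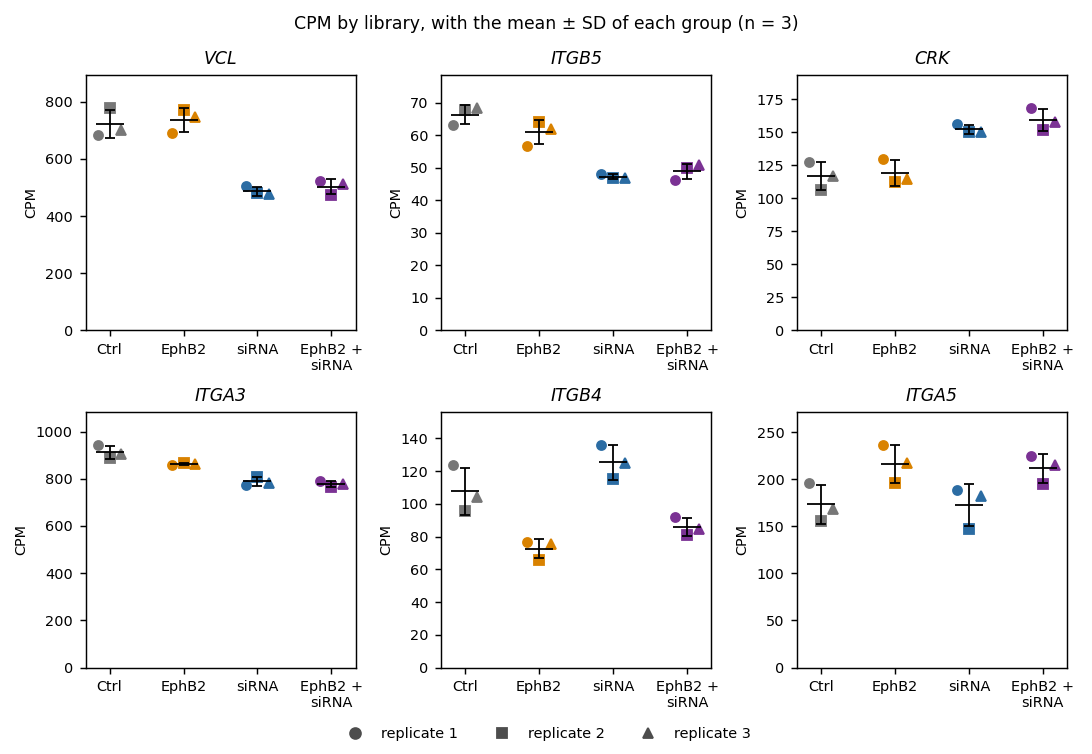
CPM of 6 genes in each library, by group, with the replicate number as the marker shape and the mean ± SD of 3 libraries in black, each axis starting at 0. VCL and ITGB5 are lower and CRK higher in both groups with ephrin-B1 siRNA (siRNA), and ITGB4 is lower and ITGA5 higher in both groups with EphB2-Fc.

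These were 4 of the 36 members (5.26% of 21601 genes tested were called in this comparison), 1 higher and 3 lower. They were also the members whose 6 libraries with ephrin-B1 siRNA did not overlap the 6 with control siRNA, against 3.96% of all genes. The median log2 fold change of the 36 members was -0.12 against -0.01 for all genes, and 28 members were negative. With limma on log2(TPM + 1), which moves the median of all genes to 0.07, 21 of 35 members were negative, with a median of -0.04. On that scale none of the 4 calls passed, at -0.47 for VCL, -0.25 for ITGB5, 0.49 for CRK and -0.11 for ITGA3, and an offset for transcript length ended those of ITGB5 and ITGA3.

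In the blocked fit 21 members passed, against 20.6% of all genes, or 38.5% of 10145 genes with at least 10 CPM, a level that 34 of the 36 members reach. Of the 21 members 16 were lower and 5 higher, against 10.4% and 10.2% of all genes. With the block and without replicate 3, 12 members passed, 9 lower and 3 higher, against 10.6% of all genes. The counts by role below stand beside the same 20.6% and 38.5% of the blocked fit with all libraries.

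Of the 8 genes of the actin link, 6 were lower in the blocked fit and none was higher, against 20.6% of all genes called (38.5% of those with at least 10 CPM). In the main fit only VCL passed, and with the block and without replicate 3 VCL, TNS1, ACTN4 and LPP did. TNS1, a tensin that binds integrin tails and actin, was at 132, 94.6 and 105 CPM in Ctrl, 119, 85.3 and 98.6 in EphB2, 106, 73.5 and 87.4 in ephrin-B1 siRNA and 110, 64.8 and 87.8 in EphB2 + ephrin-B1 siRNA. The groups overlapped, since replicate 1 exceeded replicate 2 in each, and the blocked log2 fold change was -0.27 (SE 0.04, blocked adjusted p = 0.000241, main adjusted p = 0.413). LPP was at 388, 630 and 505 CPM in Ctrl, 401, 681 and 529 in EphB2, 371, 482 and 498 in ephrin-B1 siRNA and 318, 501 and 397 in EphB2 + ephrin-B1 siRNA, so that replicate 1 was the lowest of each group. LPP (-0.27, blocked adjusted p = 0.00083), ACTN4 (-0.19, 0.000846) and ACTN1 (-0.18, 0.00121) also passed with the block, as did VASP (-0.16, 0.0258), which promotes actin filament growth. ZYX (-0.02) and TNS3 (-0.00), the other tensin of the set, did not pass (blocked adjusted p = 0.664 and 0.958).

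Of the 3 activators, FERMT2 and TLN2 were higher in the blocked fit. FERMT2 (kindlin-2) was at 106, 160 and 133 CPM in Ctrl, 121, 178 and 145 in EphB2, 132, 231 and 179 in ephrin-B1 siRNA and 135, 214 and 168 in EphB2 + ephrin-B1 siRNA. It was higher in each of the 6 pairs, although the groups overlapped, with a blocked log2 fold change of 0.32 (SE 0.03, blocked adjusted p = 1.08e-05, main adjusted p = 0.337). TLN2 had 0.22 (blocked adjusted p = 0.00182). TLN1, at levels of 649 to 888 CPM, had -0.09 (blocked adjusted p = 0.0858).

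Of the 4 genes of the ILK, PINCH and parvin complex, which joins beta tails to actin, LIMS1 (PINCH-1, -0.24, blocked adjusted p = 0.0018) and ILK (-0.15, 0.00195) were lower and PARVA (0.09, 0.0455) was higher in the blocked fit. PARVB (-0.11) did not pass (0.238). Of the 5 signaling genes, beside CRK, PXN (-0.12, blocked adjusted p = 0.00488) and BCAR1, which encodes p130Cas (-0.15, 0.0434), were lower in the blocked fit. PTK2 (0.07, 0.0828) and TGFB1I1 (-0.00, 0.983) did not pass.

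Of the 16 integrin subunits, 7 passed with the block, 6 lower and 1 higher, against 20.6% of all genes (38.5% of those with at least 10 CPM). Beside ITGA3 and ITGB5 these were ITGA7 (-0.34, blocked adjusted p = 0.00101), ITGA11 (-0.18, 0.0206), ITGB1 (-0.13, 0.00669) and ITGB3 (-0.28, 0.0014), all lower, and ITGB4 (0.23, 0.000275), which was higher. ITGA7 was at 22.9, 61.4 and 45.2 CPM in Ctrl, 17.4, 45.7 and 29.9 in EphB2, 16.2, 47.0 and 29.7 in ephrin-B1 siRNA and 17.6, 37.7 and 24.0 in EphB2 + ephrin-B1 siRNA, a spread within each group wider than the difference between groups. ITGB1, the partner of most alpha subunits, was at 720, 839 and 805 CPM in Ctrl, 654, 851 and 789 in EphB2, 655, 780 and 714 in ephrin-B1 siRNA and 607, 791 and 702 in EphB2 + ephrin-B1 siRNA, with overlapping groups. Main adjusted p-values of these 5 lay between 0.113 and 0.677. ITGAV was at 305, 262 and 277 CPM in Ctrl, 313, 284 and 278 in EphB2, 285, 257 and 253 in ephrin-B1 siRNA and 332, 263 and 289 in EphB2 + ephrin-B1 siRNA. ITGA5 (-0.02) and ITGAV (-0.04) had blocked adjusted p-values of 0.789 and 0.491.

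The single comparisons behind this average share control libraries and are given side by side. In ephrin-B1 siRNA vs Ctrl 3 members passed (1.81% of all genes were called), VCL (-0.57, SE 0.08, adjusted p = 0.0041), ITGB5 (-0.49, SE 0.07, adjusted p = 0.00471) and CRK (0.38, SE 0.08, adjusted p = 0.0395). In EphB2 + ephrin-B1 siRNA vs Ctrl the calls were VCL (-0.52, adjusted p = 0.00555), ITGB5 (-0.44, adjusted p = 0.00736) and CRK (0.45, adjusted p = 0.0175), against 2.01% of all genes. In EphB2 + ephrin-B1 siRNA vs EphB2 they were VCL (-0.55, adjusted p = 0.0161) and CRK (0.42, adjusted p = 0.049), against 0.616% of all genes, and ITGB5 had -0.31 (adjusted p = 0.0673).

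Not all of these calls held when libraries were left out. CRK lost its call in ephrin-B1 siRNA vs Ctrl when any of 7 libraries was left out (adjusted p up to 0.171), in EphB2 + ephrin-B1 siRNA vs Ctrl with any of 4 (up to 0.0921) and in EphB2 + ephrin-B1 siRNA vs EphB2 with any of 10 (up to 0.206). VCL lost its call in the last comparison without EphB2 replicate 2 or 3 or EphB2 + ephrin-B1 siRNA replicate 2 or 3 (up to 0.108). VCL and ITGB5 kept theirs in both comparisons with Ctrl without any single library (adjusted p up to 0.0377 and 0.0491), and lost them when all libraries of replicate 2 or all of replicate 3 were left out. With the block 16, 18 and 14 members passed in these 3 comparisons, against 13.6%, 15.1% and 9.93% of all genes.

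For EphB2-Fc, libraries with EphB2-Fc were compared with those with Ctrl-Fc, averaged over both siRNAs. ITGB4 was at 124, 95.8 and 104 CPM in Ctrl and at 136, 115 and 125 CPM in ephrin-B1 siRNA, against 76.5, 65.9 and 75.7 CPM in EphB2 and 91.9, 81.0 and 84.4 CPM in EphB2 + ephrin-B1 siRNA. All 6 libraries with EphB2-Fc (up to 91.9 CPM) lay under all 6 with Ctrl-Fc (from 95.8 CPM). ITGB4 fell by 0.56 on the log2 scale (SE 0.07, 1.47-fold lower, adjusted p = 0.00547), in 6 of 6 pairs. It was the 1 member called (1.03% of all genes were called), and the 1 member without overlap (1.76% of all genes).

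The call of ITGB4 held without any single library (adjusted p up to 0.0328) and with the block and without replicate 3 (adjusted p = 0.000312). Without replicate 3 in the main fit it was lost (log2 fold change -0.58, adjusted p = 0.948), and on its most abundant transcript, which holds 52.8% of the counts, it was -0.59 (adjusted p = 0.0686). With limma on log2(TPM + 1) it was -0.79 (adjusted p = 0.0819). The 6 fibroblast or pericyte markers summed to 1328 to 1629 TPM in Ctrl and 1142 to 1760 TPM in ephrin-B1 siRNA. With EphB2-Fc their range was lower but overlapped, at 893 to 1293 TPM in EphB2 and 883 to 1171 TPM in EphB2 + ephrin-B1 siRNA. In the blocked fit averaged over both siRNAs COL1A1 (-0.30), COL1A2 (-0.91), PDGFRB (-0.37) and ACTA2 (-0.50) were called lower. THY1 (0.03) and COL3A1 (1.60, under 1 TPM) did not pass. The 3 epithelial markers summed to 3.69 to 14.4 TPM in Ctrl and 3.47 to 14.3 TPM in ephrin-B1 siRNA, and to 2.00 to 7.56 TPM in EphB2 and 1.83 to 6.91 TPM in EphB2 + ephrin-B1 siRNA, so their range was lower with EphB2-Fc but overlapped that with Ctrl-Fc. The 10 microglia markers summed to 23.4 to 28.7 TPM in Ctrl and 32.0 to 37.7 TPM in EphB2, and to 26.1 to 35.5 TPM in ephrin-B1 siRNA and 26.6 to 32.8 TPM in EphB2 + ephrin-B1 siRNA. Of those not under 1 TPM, CD68 (0.46) was called higher in that blocked fit, and CSF1R (0.20) and TMEM119 (0.60) did not pass. In bulk RNA fewer cells of a kind and less RNA per cell cannot be told apart, and the part of these markers in the result was not tested.

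In the blocked fit 9 members passed for EphB2-Fc, 4 higher and 5 lower, against 14.0% of all genes (5.65% higher and 8.37% lower), or 25.6% of genes with at least 10 CPM. With the block and without replicate 3 there were 3, ITGB4, ITGA5 and PARVA, against 5.0% of all genes. ITGA5, the fibronectin receptor subunit, was at 196, 155 and 168 CPM in Ctrl, 189, 147 and 183 CPM in ephrin-B1 siRNA, 236, 196 and 217 CPM in EphB2, and 225, 195 and 215 CPM in EphB2 + ephrin-B1 siRNA. It was higher in 6 of 6 pairs with a blocked log2 fold change of 0.31 (SE 0.03, blocked adjusted p = 3.91e-05, main adjusted p = 0.117), and the libraries overlapped only between 195 and 196 CPM. DESeq2 called it without a block.

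PARVA (alpha-parvin) was at 128, 156 and 138 CPM in Ctrl, 133, 176 and 150 in ephrin-B1 siRNA, 108, 138 and 126 in EphB2 and 115, 142 and 130 in EphB2 + ephrin-B1 siRNA. It was lower in 6 of 6 pairs (-0.21, blocked adjusted p = 0.000244, main adjusted p = 0.329), with overlapping groups. The others with the block were ZYX (0.17, blocked adjusted p = 0.00196), ACTN1 (0.11, 0.0414) and ITGAV (0.10, 0.0459), which were higher, and ITGA7 (-0.33, 0.00265), TLN2 (-0.23, 0.00255) and ITGA4 (-0.21, 0.0293), which were lower. ZYX, ACTN1 and ITGAV turned negative with limma on log2(TPM + 1), where the median of all genes moved to -0.16, and TLN2 turned positive with an offset for transcript length. VCL (0.04), ITGB5 (-0.04) and CRK (0.05), the genes that changed with the siRNA, had blocked adjusted p-values of 0.645, 0.567 and 0.422 for EphB2-Fc.

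**Figure D3:**
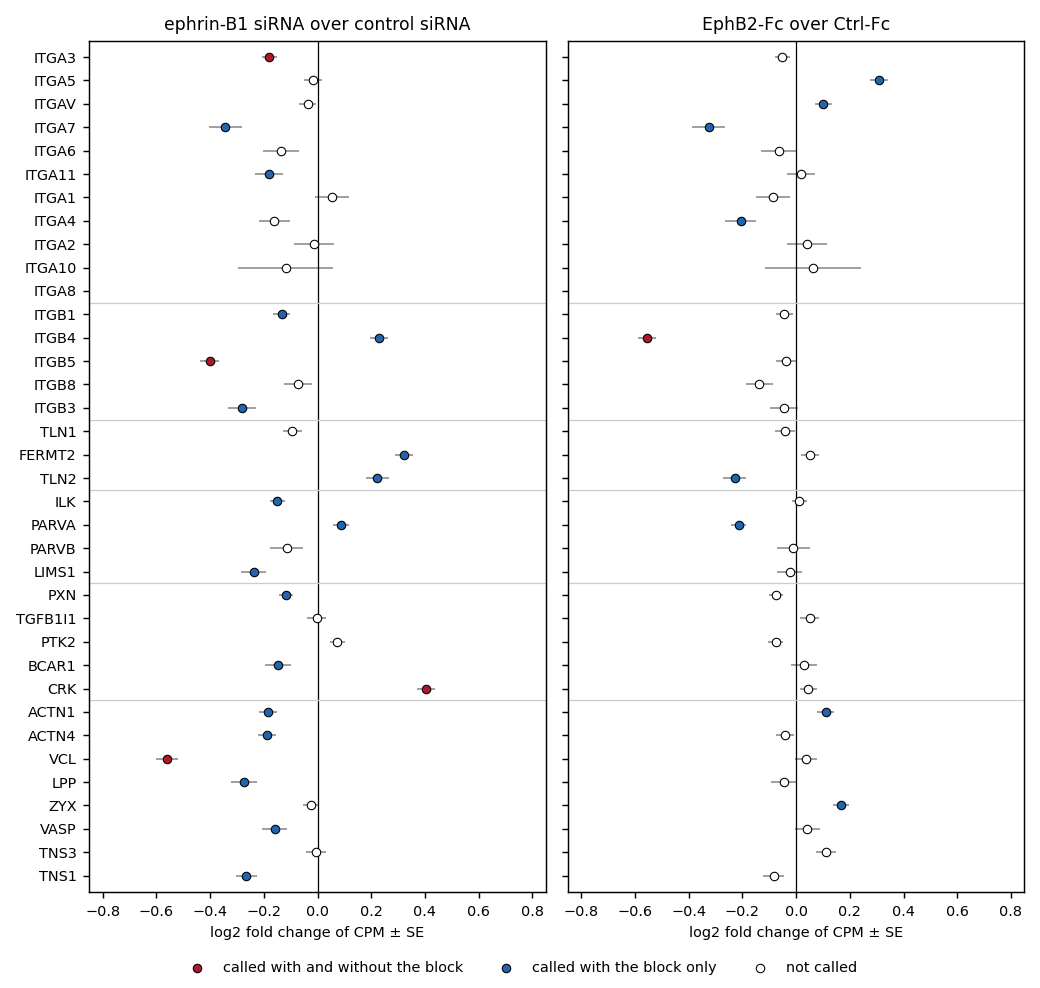
Log2 fold change of CPM (points, from the blocked fit, ± SE) of 35 members with ephrin-B1 siRNA (left) and with EphB2-Fc (right), each averaged over the other factor, with ITGA8 left out for its 69 counts. Filled points passed an adjusted p of 0.05, in red with and without the block (VCL, ITGB5, CRK and ITGA3 on the left, ITGB4 on the right) and in blue with the block only. Directions turned for PXN, ILK, LIMS1 and BCAR1 in ephrin-B1 siRNA vs Ctrl, for TLN2 in EphB2 + ephrin-B1 siRNA vs EphB2 and for ITGAV, ZYX and ACTN1 with EphB2-Fc when TPM was used.

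In EphB2- vs Ctrl-treated HMC3 cells, which tests EphB2-Fc without ephrin-B1 siRNA, edgeR called none of the 36 members (0.037% of all genes), 3 had an unadjusted p under 0.05 and DESeq2 called 1, ITGB4. The log2 fold change was -0.57 for ITGB4 (SE 0.10, adjusted p = 0.12) and 0.32 for ITGA5 (SE 0.12, adjusted p = 0.534). With the block 6 members passed, against 5.34% of all genes: ITGB4, ITGA5, ITGA7 (-0.48), ITGB8 (-0.29), ZYX (0.21) and PARVA (-0.18). In EphB2 + ephrin-B1 siRNA against ephrin-B1 siRNA alone, which tests EphB2-Fc after the siRNA, edgeR also called none (0.116% of all genes), 2 had an unadjusted p under 0.05 and DESeq2 called 1, ITGB4 (-0.55, SE 0.10, adjusted p = 0.103 in edgeR). With the block 6 members passed, against 6.93% of all genes, among them ITGB4, ITGA5 (0.29), PARVA (-0.24) and ITGA11 (0.29).

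Whether ephrin-B1 siRNA changed the response to EphB2-Fc was tested as the interaction, the difference of these 2 log2 fold changes. No member passed in edgeR, with 0.0% of all genes called, and none had an unadjusted p under 0.05 in the main fit. With the block 6 members had one, ITGA11, FERMT2, ITGB8, LPP, ITGA7 and ITGB5, with blocked adjusted p from 0.306 to 0.701. No share of all genes is given for unadjusted p here, above or for the lists below. Such counts are therefore no result about the members. DESeq2 called none either. For ITGB4 the interaction was 0.02 (SE 0.15 in the main fit and 0.07 in the blocked fit). ITGA11 had the largest of the members, 0.53 (SE 0.31, edgeR adjusted p = 1, blocked adjusted p = 0.306). It was at 66.0, 50.4 and 53.6 CPM in Ctrl, 55.7, 39.1 and 49.1 in EphB2, 52.3, 31.4 and 42.5 in ephrin-B1 siRNA and 63.7, 37.7 and 52.6 in EphB2 + ephrin-B1 siRNA, and all 4 groups overlapped. In the blocked fit 0.00463% of all genes passed and no member did. These tests do not show that the responses were equal.

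Many members differed between replicate numbers. The median size of the log2 ratio of replicate 1 over 2 was 0.32 for the members against 0.18 for all genes. Of the 36, 21 had all 4 libraries of replicate 1 above or below all 4 of replicate 2 (9 above and 12 below), against 25.0% of all genes. The values for all genes here include genes of low counts. None is given for genes with at least 10 CPM, a level that 34 of the 36 members reach. ITGA1 was at 43.5 to 54.4 CPM in replicate 1, 10.1 to 11.2 CPM in replicate 2 and 27.2 to 33.6 CPM in replicate 3 of the 4 groups. Its mean ratio of replicate 1 over 2 was 4.41-fold, with log2 ratios from 2.00 to 2.27 in the single groups. ITGA2, which like ITGA1 encodes a collagen receptor subunit, was 3.00-fold higher in replicate 1 (23.1 to 26.8 CPM against 6.95 to 9.07 CPM). ITGA7 was 2.53-fold lower (16.2 to 22.9 CPM against 37.7 to 61.4 CPM). These 3 members had a mean log2 ratio of at least 1, against 3.75% of all genes.

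Others were higher in replicate 1 by smaller amounts, ITGB3 (1.90-fold), ITGA4 (1.58-fold), ITGA11 (1.51-fold), TNS3 (1.48-fold) and TNS1 (1.47-fold). ITGA6 (1.89-fold), ILK (1.66-fold), FERMT2 (1.57-fold) and LPP (1.54-fold) were lower. For the genes with calls in the main fit, the mean log2 ratio of replicate 1 over 2 was 0.01 for ITGA3, -0.03 for VCL and -0.09 for ITGB5. It was 0.17 for CRK and 0.25 for ITGB4. Without a block, differences between replicates count as spread, so the main fit favours genes with small ratios. Replicate 3 lay between replicates 1 and 2 in 121 of 144 combinations of member and group (84.0%), and in all 4 groups for 22 members. The same held for 55.04% of the combinations of all genes and for 93.1% of those of genes with a mean ratio of at least 2-fold. What the experiments behind the numbers differed in is not given in the sources used here.

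**Figure D4:**
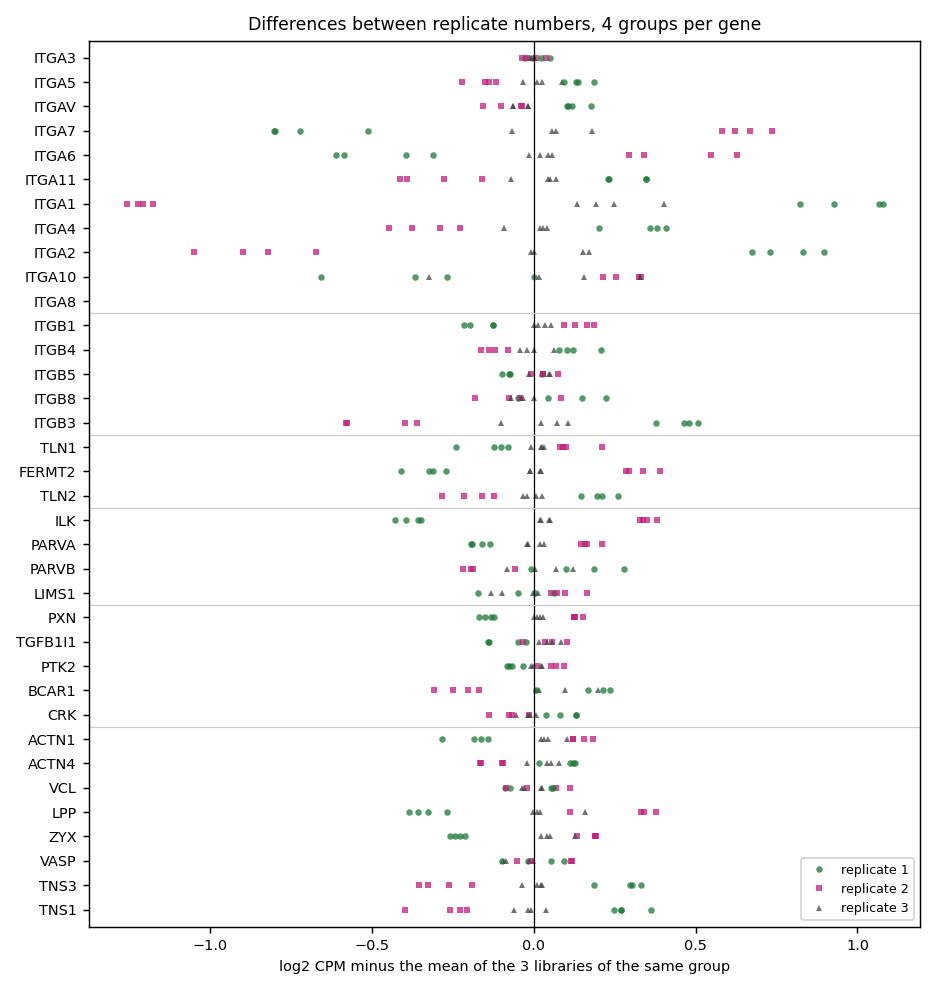
Log2 CPM of each library minus the mean of the 3 libraries of its group, for 35 members (ITGA8 left out) and 4 groups, with a colour and shape per replicate number. Replicates 1 and 2 lie on opposite sides of 0 for ITGA1, ITGA2, ITGA7 and ITGA6, with replicate 3 between them, and close together for ITGA3, VCL and ITGB5.

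The proteins that integrins bind were described beside them from a list of 22 ligands. With ephrin-B1 siRNA 2 of the 22 passed in the main fit, in which 5.26% of all genes were called, the microfibril protein FBN1 (0.68, SE 0.09, adjusted p = 0.00183), which rose, and tenascin C (TNC, -0.62, SE 0.14, adjusted p = 0.0277), which fell. With the block 2 were higher and 12 lower, against 20.6% of all genes called in either direction (38.5% of those with at least 10 CPM), and the median log2 fold change of the list was -0.16 against -0.01 for all genes. The ligands with the highest levels were fibronectin (FN1, 1705 TPM), COL1A1 (908 TPM) and CCN1 (496 TPM). FN1 had -0.40 (SE 0.25, adjusted p = 0.469, blocked adjusted p = 0.000201). The growth factor TGFB1, whose latent form binds integrins with ITGAV (-0.38, blocked adjusted p = 5.6e-06), and the laminin chain LAMC1 (-0.40, 1.28e-05) were lower with the block only. With EphB2-Fc VCAM1, a ligand of the integrin of ITGA4 and ITGB1, rose (2.16, SE 0.44, adjusted p = 0.0454) and COL1A1 fell (-0.30, SE 0.05, adjusted p = 0.0291), against 1.03% of all genes called. In EphB2 vs Ctrl alone neither passed in the main fit, VCAM1 at 1.84 (SE 0.63, adjusted p = 0.499) and COL1A1 at -0.34 (SE 0.08, adjusted p = 0.238). Their blocked adjusted p-values there were 0.0712 and 0.000675. Averaged over both siRNAs 6 ligands were higher and 5 lower with the block, against 14.0% of all genes (25.6% of those with at least 10 CPM). COL1A2 (-0.91, blocked adjusted p = 1.29e-05) was lower with the block only.

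Of 52 other focal adhesion proteins, 3 fell with ephrin-B1 siRNA and none rose in the main fit, TNS2 (-0.29, SE 0.05, adjusted p = 0.00526), EVL (-0.36, SE 0.07, adjusted p = 0.0128), a relative of VASP, and ITGB1BP1 (-0.19, SE 0.04, adjusted p = 0.0266), which binds the ITGB1 tail. These 3 of 52 stand against 5.26% of all genes called. With the block 10 were higher and 14 lower, against 20.6% of all genes (38.5% of those with at least 10 CPM), with a median of -0.02, and PDLIM1 (-0.44) and LIMD1 (-0.30), both LIM domain proteins, were lower in that fit only. With EphB2-Fc 3 fell and none rose, among them TNS2 (-0.46, SE 0.05, adjusted p = 0.00179) and LIMS2 (PINCH-2, -0.37, SE 0.08, adjusted p = 0.0454). In that comparison 1.03% of all genes were called. With the block 2 were higher and 11 lower, against 14.0% of all genes (25.6% of those with at least 10 CPM), with a median of -0.03, and KANK2 (-0.29), which binds talin, was lower in that fit only. The genes of this list with the highest levels were FLNA (632 TPM), MYL9 (501 TPM) and CAV1 (425 TPM). TNS2, a further tensin, was in the list with its change known from earlier results. Of the 10 other integrin subunits none passed in either averaged comparison in edgeR, with 2 at an unadjusted p under 0.05 for the siRNA, both lower, and 0 for EphB2-Fc. With the block 2 were lower with the siRNA, ITGAE and ITGB2, against 20.6% of all genes called and 10.4% called lower. ITGB2 had only 7 to 92 counts per library. With EphB2-Fc 0 passed with the block, against 14.0% of all genes.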

How the data were processed

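RNA of 12 HMC3 libraries was analysed, 3 in each of 4 groups taken from the sample titles. The estimated counts were made by the authors with kallisto, its version not given, against the Ensembl 109 cDNA of GRCh38 and deposited per transcript without normalization. The deposited TPM values were computed by the authors' kallisto run from these counts and effective lengths. Of 188753 transcripts, 167067 (88.5%) were paired with GENCODE 44 genes by identifier. They held 95.25% to 95.98% of a library's counts. Gene sums of these counts were rounded to whole numbers. The 21601 genes that reached 10 counts over all libraries were tested together with edgeR 4.0.16 (quasi-likelihood, TMM, all groups, no block, Benjamini-Hochberg, threshold 0.05), all p two-sided. Every adjusted p in the text is from this test over all genes unless a block or another tool is named. SE is the log2 fold change over the root of F. TPM was used to order genes, CPM to compare groups.

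The submitted file names give same-numbered libraries the same experiment number, which is why they were taken as pairs. Deviations from the group means correlated at 0.589 to 0.688 among libraries of replicate 1 and 0.626 to 0.66 of replicate 2 (14272 genes). Among libraries of replicate 3 the values were 0.0183 to 0.181. A replicate that lies between the other 2 deviates little from the group mean, so low values can follow from that position. These correlations cannot show whether the replicate 3 libraries share an experiment. Without the block edgeR's common biological coefficient of variation was 0.182, and with it 0.0649. The labels do not say whether libraries came from separate cultures beyond this, and p-values measure the spread between these libraries.

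Members and lists were chosen with earlier results of these data known. Every library was given for the 12 members of smallest p among those called in any comparison, with or without the block, and for the 3 alpha and 3 beta subunits of highest TPM. Genes of the other lists were to be the 5 of smallest p and the 3 of highest TPM per list. Others called without the block were named as well, and FN1 with its test, a choice made after their values were seen. The values of 1 gene of these lists are not reported here. Lists were described by counts and medians, with no set test. Alternatives were DESeq2 1.42.0, its size factors in edgeR, other count filters, the groups compared alone, the block, an offset for transcript length, limma 3.58.1 on log2(TPM + 1) with mean TPM of at least 0.5, the most abundant transcript, and leaving out libraries or replicates. R 4.3.3, Python 3.11.15, pandas 2.3.3 and matplotlib 3.10.9 were used, and the fits were tested on simulated data. Kallisto divides reads among similar transcripts, so paralogs and overlapping genes carry added uncertainty. No siRNA sequence or protein sequence was used here.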

Additional observations from a re-analysis of the deposited data

How the results depend on the processing

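The replicate number as a block raised the number of members called to 6 in EphB2 vs Ctrl, 16 in ephrin-B1 siRNA vs Ctrl, 18 in EphB2 + ephrin-B1 siRNA vs Ctrl, 6 in EphB2 + ephrin-B1 siRNA against ephrin-B1 siRNA alone, 14 in EphB2 + ephrin-B1 siRNA vs EphB2, 9 for EphB2-Fc averaged and 21 for the siRNA averaged, in place of 0, 3, 3, 0, 2, 1 and 4. In this order the block called 5.34%, 13.6%, 15.1%, 6.93%, 9.93%, 14.0% and 20.6% of all genes. The main fit called 0.037%, 1.81%, 2.01%, 0.116%, 0.616%, 1.03% and 5.26%. Without replicate 3 in the blocked fit the numbers of members were 1, 9, 9, 2, 2, 3 and 12. Of all genes, 5.0% passed there for EphB2-Fc averaged and 10.6% for the siRNA averaged. No share of all genes is given for the other alternatives of this section, so their counts are no result about the members. The interaction had 0 in every alternative.

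DESeq2 gave 1, 4, 4, 1, 4, 2 and 5, with ITGA3 and ITGB5 added in EphB2 + ephrin-B1 siRNA vs EphB2. Its size factors in edgeR gave 1 there. The offset for transcript length gave 1 in ephrin-B1 siRNA vs Ctrl, 1 in EphB2 + ephrin-B1 siRNA vs EphB2 and 2 for the siRNA averaged. The most abundant transcript gave 1 in EphB2 + ephrin-B1 siRNA vs EphB2 and 0 for EphB2-Fc averaged. With only the groups compared, 0 passed in EphB2 + ephrin-B1 siRNA vs Ctrl and vs EphB2. limma on log2(TPM + 1) gave 0 in all comparisons. On that scale the median of all genes shifted by 0.17 in ephrin-B1 siRNA vs Ctrl and by -0.26 in EphB2 + ephrin-B1 siRNA against ephrin-B1 siRNA alone.

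With libraries or replicate numbers left out, the counts ranged from 0 to 0 in EphB2 vs Ctrl and in EphB2 + ephrin-B1 siRNA against ephrin-B1 siRNA alone, from 0 to 3 in both comparisons of siRNA groups with Ctrl, from 0 to 2 in EphB2 + ephrin-B1 siRNA vs EphB2, from 0 to 1 for EphB2-Fc averaged and from 0 to 5 for the siRNA averaged. Leaving out all of replicate 3 gave 0 in each comparison. Leaving out all of replicate 2 gave 0 in each comparison of single groups, 1 for EphB2-Fc averaged and 3 for the siRNA averaged.

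Directions turned in 18 instances, all of members called with the block only. With limma on log2(TPM + 1) these were PXN (0.07), ILK (0.05), LIMS1 (0.02) and BCAR1 (0.15) in ephrin-B1 siRNA vs Ctrl, TLN2 (-0.02) in EphB2 + ephrin-B1 siRNA vs EphB2, and ITGAV (-0.12), ZYX (-0.08) and ACTN1 (-0.09) for EphB2-Fc averaged. On the most abundant transcript they were PXN (0.03) in ephrin-B1 siRNA vs Ctrl and TNS1 (0.17) in EphB2 + ephrin-B1 siRNA vs EphB2, and with the length offset TLN2 (0.04) for EphB2-Fc averaged. With libraries left out, ILK ranged from -0.36 to 0.04 in ephrin-B1 siRNA vs Ctrl, and from -0.33 to 0.05 when EphB2 + ephrin-B1 siRNA was set against Ctrl or against EphB2. In the last of these ITGB3 ranged from -0.49 to 0.01. The cause was not tested.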
